A study of Rattus norvegicus with 9 samples.

Results

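The respiratory chain genes were studied on 9 arrays of prostate RNA from male Sprague Dawley rats, aged 6 weeks at the start, with 3 arrays in each of 3 groups. Legends of the study describe the arrayed prostates as those of different rats, naming the BPH and BPH+ghrelin groups, while the labels only number the samples of each group. The sham group underwent a sham operation, injections of corn oil and oral water. The BPH group was castrated and received dihydrotestosterone (3 mg/kg, subcutaneous, once daily) for 4 weeks with oral water, which serves as a model of benign prostatic hyperplasia (BPH). The BPH+ghrelin group was castrated, received the same dihydrotestosterone, and was given rat ghrelin by gavage (20 nmol/kg, once daily) for the last 2 weeks. Castration and hormone were therefore shared by both BPH groups, and in BPH versus sham they cannot be told apart. Genes were selected by name: all probes whose RefSeq accession belonged to a rat symbol starting with Nduf, Uqcr, Cox4 to Cox8 or Atp5, or to Sdha, Sdhb, Sdhc, Sdhd or Cycs. This gave 83 genes with 106 probes, out of 15163 genes and 30356 probes. They comprised 31 genes of complex I, 6 assembly factors of complex I (Ndufaf), 4 of complex II, 8 of complex III, 17 of complex IV, 15 of complex V, cytochrome c, and the pseudogene Cox6c-ps1.

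The respiratory chain sits in the inner membrane of mitochondria. Complexes I and II pass electrons from NADH and succinate to ubiquinone, complex III passes them on to cytochrome c, and complex IV passes them to oxygen. Complexes I, III and IV pump protons, and complex V (ATP synthase) uses the gradient to make ATP. Most subunits are encoded in the nucleus, a smaller number in mitochondrial DNA; all genes described here are nuclear. Rat prostate epithelium is known for secreting citrate, which withdraws a substrate of the citric acid cycle that feeds the chain.

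Values are log2 signals after quantile normalization, and a difference is the difference of group means on this scale. A gene was called when its adjusted p was under 0.05 (limma, Benjamini-Hochberg over all genes tested). Of the 83 genes, 81 were tested in each comparison; their probes were well above background on all 9 arrays. The other two were Cox8b and Cox8c. No probe was found here for 37 protein-coding symbols that the naming rule would include, among them Cox7a1, Cox7b2 and Ndufa4l2, and none for the 13 subunits encoded in mitochondrial DNA; these are not analysed here.

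Several properties of the arrays bear on all results. Each group had an array with intermediate values for most genes, between those of its other arrays: BPH replicate 2 for 70.9% of all genes and 76.5% of the respiratory chain genes, BPH+ghrelin replicate 2 for 68.6% and 77.8%, and sham replicate 3 for 72.9% and 79.0%. Sham replicate 2 was the dimmest array, with 61.4% of probes well above background against 69.5% to 75.05% on the others. Genes of seminal vesicle and coagulating gland secretions (9 genes) had a summed log2 signal of 16.5 to 17.3 in sham. It was 9.6 to 14.8 in BPH and 9.2 to 11.96 in BPH+ghrelin. Mainly Semg1 (16.07 to 16.69 in sham, 7.35 to 14.53 in BPH) and Svs4 (14.38 to 15.64 and 9.02 to 12.12) carried this sum. Of the 7 genes of this list tested in BPH versus sham, 5 were below 0 and 2 above. Svs1 was not well above background on any array. Summed markers of prostate and luminal epithelium (15 genes) had log2 signals of 17.99 to 18.20 in sham, 17.02 to 17.62 in BPH and 17.05 to 17.41 in BPH+ghrelin. That sum was carried by the secretory genes Msmb (15.99 to 16.22 in sham, 4.79 to 12.81 in BPH) and Pbsn (16.16 to 16.41 and 13.11 to 14.11), whereas Krt8, a keratin of luminal cells, had 10.38 to 10.74 in sham and 11.49 to 11.56 in BPH. The median deviation of the 15 genes overlapped between sham (0.18, -0.13 and 0.04) and BPH (0.26, 0.16 and -0.19). The part of these differences in the values of respiratory chain genes was not tested. In such bulk tissue, fewer cells of a type and less RNA per cell cannot be told apart.

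Promoter sequences are given for Atp5f1b and Atp5f1c, the genes that were called, and for Uqcrc1 and Cycs, in which motifs known from this gene class were found (RefSeq, build GRCr8; 250 bases before to 50 after the start of the gene). Motifs are in capitals, namely GCGCATGC or its reverse complement GCATGCGC (NRF1) and AAGATGGC (YY1):
Atp5f1b, chr7:1099808-1100107, plus strand: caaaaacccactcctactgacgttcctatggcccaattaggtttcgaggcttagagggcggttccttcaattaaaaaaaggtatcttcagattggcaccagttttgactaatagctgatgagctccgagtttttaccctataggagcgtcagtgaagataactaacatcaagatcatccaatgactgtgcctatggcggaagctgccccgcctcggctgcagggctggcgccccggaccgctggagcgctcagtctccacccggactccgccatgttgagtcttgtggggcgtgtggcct
Atp5f1c, chr17:73333435-73333734, plus strand: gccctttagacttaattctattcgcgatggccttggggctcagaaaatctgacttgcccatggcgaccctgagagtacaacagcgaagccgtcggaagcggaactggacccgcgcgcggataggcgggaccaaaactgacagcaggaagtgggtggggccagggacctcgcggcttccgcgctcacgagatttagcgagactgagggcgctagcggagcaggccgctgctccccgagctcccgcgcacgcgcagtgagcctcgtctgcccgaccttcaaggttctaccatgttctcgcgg
Uqcrc1, chr8:118467973-118468272, plus strand: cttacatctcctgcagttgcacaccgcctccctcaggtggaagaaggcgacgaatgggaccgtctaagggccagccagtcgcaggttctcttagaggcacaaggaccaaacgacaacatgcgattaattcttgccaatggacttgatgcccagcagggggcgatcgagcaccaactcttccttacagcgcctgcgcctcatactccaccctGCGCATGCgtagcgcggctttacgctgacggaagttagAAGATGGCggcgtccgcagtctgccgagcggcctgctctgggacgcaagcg
Cycs, chr4:80984718-80985017, minus strand: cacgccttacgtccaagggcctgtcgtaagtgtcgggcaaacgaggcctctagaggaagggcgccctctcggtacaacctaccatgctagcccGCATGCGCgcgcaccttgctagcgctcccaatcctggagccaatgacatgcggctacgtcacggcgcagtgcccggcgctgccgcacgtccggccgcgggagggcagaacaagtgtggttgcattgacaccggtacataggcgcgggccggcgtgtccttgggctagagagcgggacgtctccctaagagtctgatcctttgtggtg
Counted from the start site, the NRF1 motif of Uqcrc1 began at position -39 and its YY1 motif at -1, while the NRF1 motif of Cycs began at -157.

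Promoters of 73 respiratory chain genes were at hand. Searched on both strands, the NRF1 motif GCGCATGC was found in 12 of them (16.4%) and in 2.47% of all 33469 promoters of the same length. The YY1 motif AAGATGGC was found in 13 (17.8%; 3.17% of all), the ETS motif CCGGAAGT in 7 (9.59%; 3.81% of all) and the ERR motif TCAAGGTCA in 1, that of Sdhd (1.37%; 0.433% of all). Neither Atp5f1b nor Atp5f1c held any of these letters in the window. Among tested genes with a promoter, the median log2 difference in BPH+ghrelin versus BPH was 0.25 for the 11 genes with the NRF1 motif and 0.11 for the 60 without; in BPH+ghrelin versus sham both medians were 0.19. For the other motifs in BPH+ghrelin versus BPH, the medians with and without were 0.11 and 0.12 for YY1, and 0.07 and 0.14 for ETS, and Sdhd alone held the ERR motif. A match is a description of the sequence and does not show binding.

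**Figure D1:**
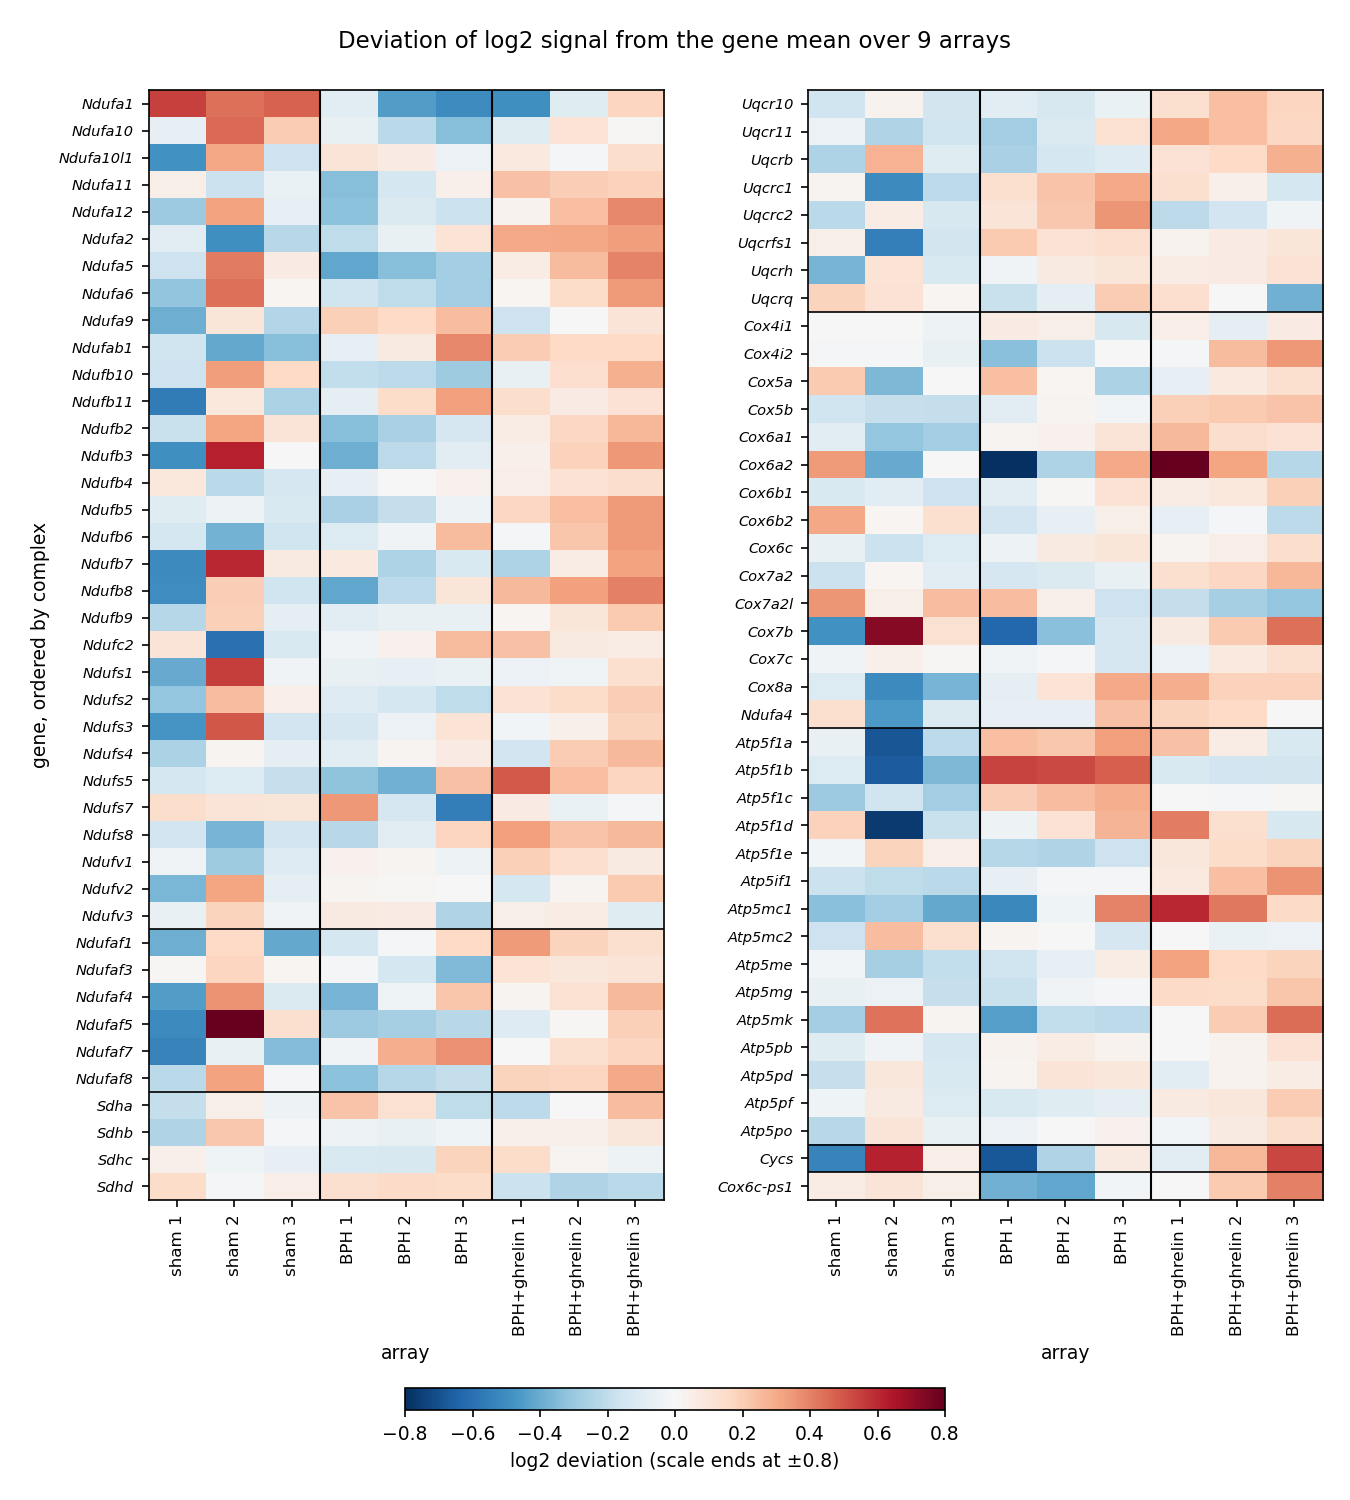
Each row is 1 of 81 respiratory chain genes, ordered by complex (horizontal lines), and each column is 1 of the 9 arrays; the colour is the deviation of the gene's log2 signal from its mean over the 9 arrays, with the scale ending at ±0.8. Atp5f1a, Atp5f1b and Atp5f1c are red in BPH, Ndufa1 is red in sham, and most rows are red in BPH+ghrelin.

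In BPH versus sham, 2 respiratory chain genes were called higher and 0 lower. Both encode parts of the catalytic head of ATP synthase (F1): Atp5f1b, the beta subunit that carries the catalytic sites, and Atp5f1c, the gamma subunit that forms the rotating shaft. Among all 19552 genes tested, 2.15% were called higher and 2.18% lower, so that 2 of 81 is near the background. At an unadjusted p under 0.05, 11 respiratory chain genes were higher (14.4% of all genes) and 4 lower (12% of all genes). BPH and sham arrays were fully separated for 16 genes with higher values in BPH (17.1% of all genes) and 6 with lower values (14.2% of all genes). The 15 genes past the unadjusted threshold became 1 with the scan as a block (7.04% of all genes), 8 with 6 arrays alone (20.8%), 7 without BPH replicate 2 (16.8%), 8 without BPH replicate 3 (19.9%), 24 without sham replicate 1 (37.5%) and 6 without sham replicate 3 (19.7%).

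Atp5f1b had log2 signals of 12.36, 11.80 and 12.11 in sham, 13.01, 13.00 and 12.94 in BPH, and 12.35, 12.32 and 12.32 in BPH+ghrelin. All BPH arrays were above all others, while the BPH+ghrelin arrays lay within the range of sham. The log2 difference in BPH versus sham was 0.89 ± 0.15 (SE, adjusted p = 0.021, limma), a 1.86-fold level. In BPH+ghrelin versus BPH it was -0.65 ± 0.15 (adjusted p = 0.073), which did not pass the threshold, although the groups did not overlap. Atp5f1c had log2 signals of 11.35, 11.49 and 11.36 in sham, 11.84, 11.89 and 11.94 in BPH, and 11.65, 11.63 and 11.65 in BPH+ghrelin. None of the 3 groups overlapped, with BPH+ghrelin in the middle. Its log2 difference was 0.49 ± 0.10 in BPH versus sham (adjusted p = 0.041, limma) and -0.25 ± 0.10 in BPH+ghrelin versus BPH (adjusted p = 0.22).

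The arrays came from 3 scan records: scan 1 held all BPH arrays and BPH+ghrelin replicate 1, scan 2 held BPH+ghrelin replicates 2 and 3 and sham replicates 1 and 2, and scan 3 held sham replicate 3. Both calls were lost with the scan as a block (adjusted p = 0.67 for Atp5f1b and 0.80 for Atp5f1c, limma), with log2 differences of 0.87 and 0.47; no scan held arrays of both BPH and sham, which were linked only through BPH+ghrelin. They were also lost without BPH replicate 2 (0.11 and 0.18), without BPH replicate 3 (0.062 and 0.10) or without sham replicate 3 (0.089 and 0.15), and that of Atp5f1c also without BPH replicate 1 (0.067), with scaling to the 75th percentile (0.16) and with no filter on dim probes (0.057). A fit of the 6 arrays of BPH and sham alone also lost both (0.094 and 0.14). Without the 3 intermediate arrays together, 0 respiratory chain genes were called. Over all genes, 3 were then called in BPH versus sham, 0 in BPH+ghrelin versus BPH and 2 in BPH+ghrelin versus sham.

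The other subunits of the F1 head did not pass the test. Atp5f1a, the alpha subunit, had log2 signals of 14.31, 13.68 and 14.15 in sham, 14.61, 14.58 and 14.69 in BPH, and 14.60, 14.42 and 14.25 in BPH+ghrelin. The BPH arrays were all above sham, with a log2 difference of 0.58 ± 0.18 (adjusted p = 0.099, limma). Atp5f1e, the epsilon subunit, had the opposite pattern, with log2 signals of 14.71, 14.91 and 14.79 in sham, 14.51, 14.49 and 14.57 in BPH, and 14.83, 14.88 and 14.91 in BPH+ghrelin. Its log2 difference was -0.28 ± 0.11 in BPH versus sham (adjusted p = 0.15) and 0.35 ± 0.11 in BPH+ghrelin versus BPH (adjusted p = 0.13). Subunits of the same head thus had differences of opposite sign. Atp5f1d, the delta subunit, ranged from 10.57 to 11.52 in sham and from 11.29 to 11.61 in BPH (difference 0.37 ± 0.25, adjusted p = 0.37).

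**Figure D2:**
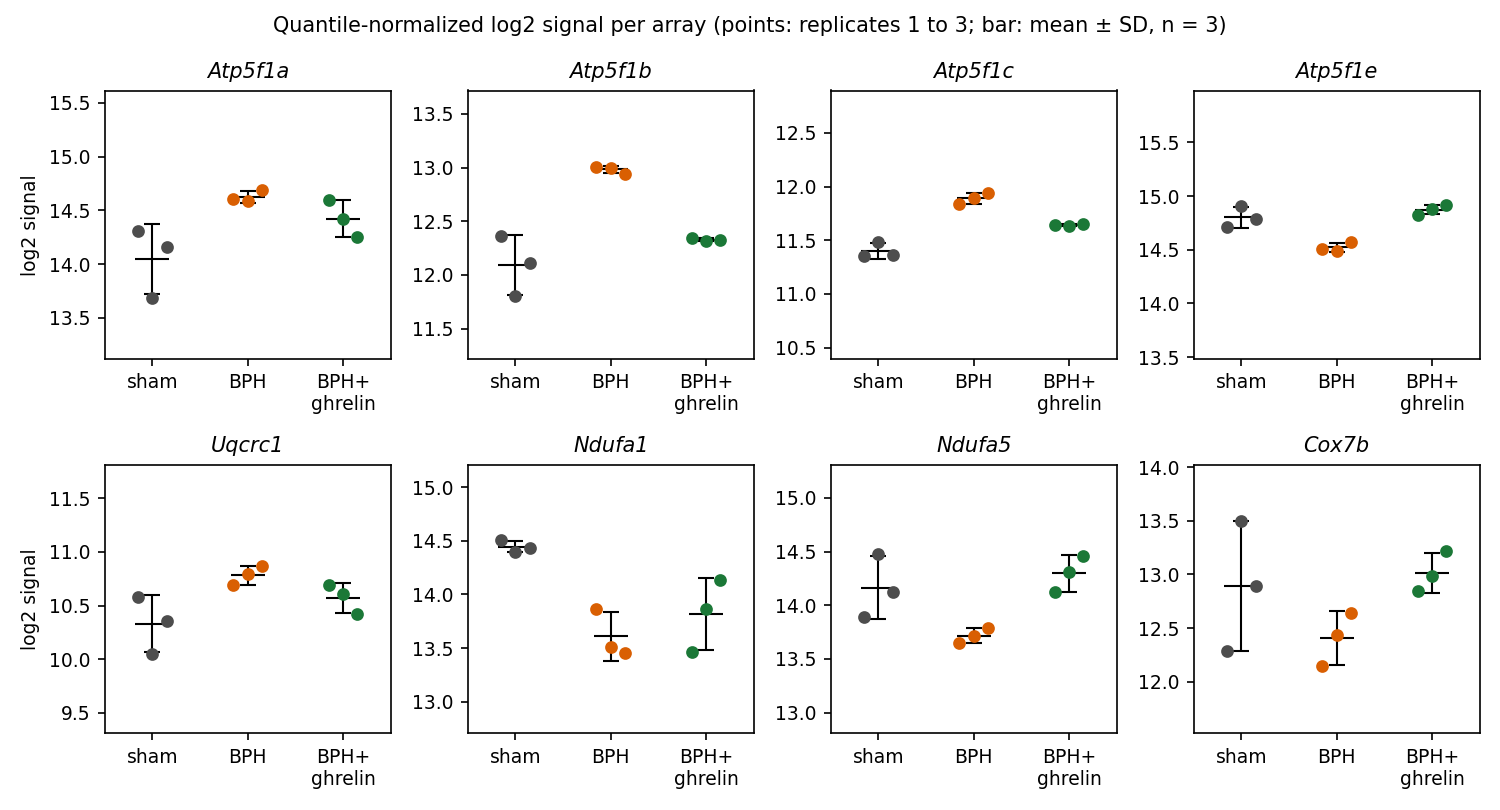
Quantile-normalized log2 signals of 8 named genes, with points for replicates 1 to 3 of each group and bars for mean ± SD (n = 3); all panels span the same log2 range. For Atp5f1b, BPH lies between 12.94 and 13.01, above all sham and BPH+ghrelin arrays; for Ndufa1, sham lies above both BPH groups.

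In complex III, the core proteins Uqcrc1 and Uqcrc2 and the Rieske iron-sulphur subunit Uqcrfs1 were higher in all BPH arrays than in all sham arrays, with log2 differences of 0.45, 0.32 and 0.37, and lower in all BPH+ghrelin than in all BPH arrays, in part by a small margin, with -0.21, -0.36 and -0.09. None of them was called in either comparison. Uqcrc1 had log2 signals of 10.58, 10.05 and 10.35 in sham, 10.69, 10.79 and 10.86 in BPH, and 10.69, 10.60 and 10.42 in BPH+ghrelin. The 5 small subunits had a median log2 difference of 0.0032 in BPH versus sham and 0.27 in BPH+ghrelin versus BPH. Of these, Uqcr10 had log2 signals of 15.15, 15.11 and 15.18 in BPH and 15.36, 15.48 and 15.41 in BPH+ghrelin, without overlap.

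On the lower side of BPH versus sham, Ndufa1 had the largest difference. It encodes a small subunit in the membrane arm of complex I. Its log2 signals were 14.50, 14.40 and 14.43 in sham, 13.87, 13.51 and 13.45 in BPH, and 13.46, 13.86 and 14.13 in BPH+ghrelin. All arrays of both castrated groups were below sham. The log2 difference was -0.84 ± 0.19 in BPH versus sham (adjusted p = 0.0503, limma) and -0.62 ± 0.19 in BPH+ghrelin versus sham (adjusted p = 0.092). With the scan as a block, the first of these was -0.31 (adjusted p = 0.97), and it became a call under 6 settings, among them scaling to the 75th percentile (-1.23, adjusted p = 0.036). Ndufa5 (-0.45), Ndufb10 (-0.34), Atp5f1e (-0.28) and the pseudogene Cox6c-ps1 (-0.34) also had lower log2 signals in all BPH than in all sham arrays, without passing the test, while Ndufaf7, an assembly factor, had higher ones (0.52 ± 0.16, adjusted p = 0.10). The second probe of Ndufaf7 had a difference of the opposite sign (-0.25).

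Over all 81 genes, the median log2 difference in BPH versus sham was 0.0067, beside 0.039 over all genes; 43 genes were above 0 and 38 below. Under scaling to the 75th percentile this turned to -0.26, where the median over all genes also shifted, to -0.087. The largest complex, complex I, had 13 genes above 0 and 18 below, and complex V had 11 and 4. Quartiles were -0.15 and 0.17, narrower than over all genes (-0.27 and 0.36), and 0 of the 81 genes differed at least 2-fold.

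**Figure D3:**
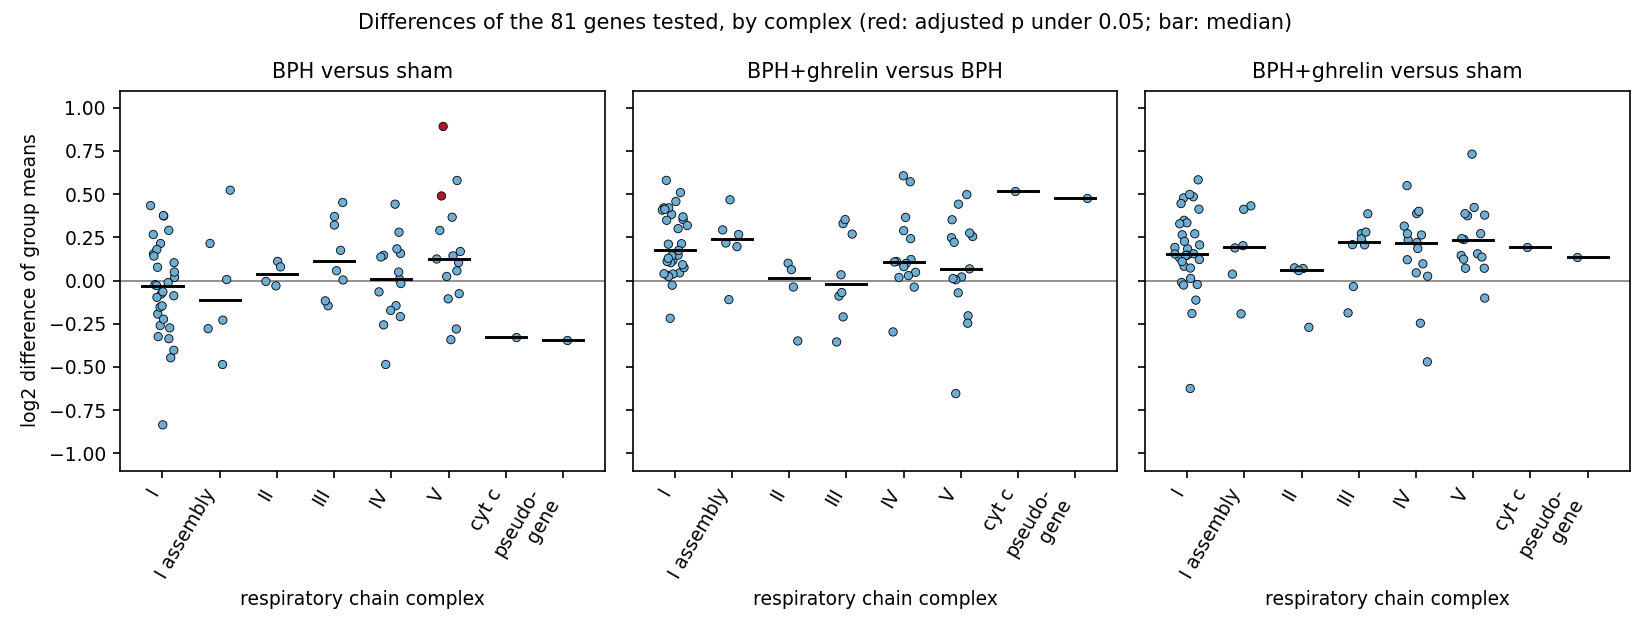
Log2 differences of the 81 genes tested (points) by complex in the 3 comparisons; bars are medians, and red points are genes with an adjusted p under 0.05. The 2 red points are Atp5f1b (0.89) and Atp5f1c (0.49) in BPH versus sham; in both comparisons of BPH+ghrelin most points of complex I are above 0.

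The comparison of BPH+ghrelin versus BPH addresses what ghrelin adds to the hormone-treated prostate. No respiratory chain gene was called in either direction (limma), beside 0.496% of 19749 genes called higher and 0.987% called lower. At an unadjusted p under 0.05, 18 respiratory chain genes were higher (10.7% of all genes) and 4 lower (10.5% of all genes). The groups did not overlap for 34 genes with higher values in BPH+ghrelin (19.8% of all genes) and 8 with lower values (19.3% of all genes). A difference above 0 was found for 66 of 81 genes, beside 10205 of 19749 over all genes. The median was 0.13, beside 0.015 over all genes. Here and in the other comparisons, all genes were not matched to the respiratory chain genes for brightness. Under scaling to the 75th percentile, 72 of 81 genes were above 0, and the median was 0.46 beside 0.095 over all genes. Differences were small, from -0.65 to 0.61 on the log2 scale, and 0 genes differed at least 2-fold. Markers of other cell types separated the same groups in some measures. Basal epithelium markers (6 genes) had summed log2 signals of 13.68 to 13.77 in BPH and 13.79 to 13.91 in BPH+ghrelin. Their median deviation overlapped, at 0.01, 0.16 and 0.24 in BPH and -0.07, 0.07 and 0.12 in BPH+ghrelin. Among them, Krt15 was higher in all BPH+ghrelin than in all BPH arrays, whereas Krt5 and Krt14 were lower. The median deviation of endothelial markers (6 genes) was 0.38, 0.13 and 0.15 in BPH and -0.32, -0.38 and -0.47 in BPH+ghrelin. That of immune markers (13 genes) was 0.44, 0.23 and 0.07 in BPH and -0.32, -0.32 and -0.24 in BPH+ghrelin, and that of fibroblast markers (8 genes) was 0.30, 0.33 and 0.41 against -0.17, -0.01 and 0.12. The summed log2 signals of these last 3 lists overlapped, at 9.79 to 10.41 in BPH and 9.64 to 9.87 in BPH+ghrelin for endothelium, 15.53 to 15.88 and 15.27 to 15.70 for immune cells, and 14.25 to 14.85 and 14.18 to 14.65 for fibroblasts. Their part in the values of the respiratory chain genes was not tested. Normexp background correction gave 3 calls (Atp5f1b and Sdhd lower, Atp5f1e higher), and a fit of these 6 arrays alone gave 3 as well (Atp5f1b lower, Ndufa5 and Ndufaf8 higher). Over all genes, these settings called 1.97% and 10.6%. The 22 genes past the unadjusted threshold became 44 under scaling to the 75th percentile (26.2% of all genes), 30 with 6 arrays alone (32%), 1 with the scan as a block (9.87% of all genes), 9 when BPH replicate 1 was left out (14.4%) and 6 when BPH replicate 2 was (12.5%). Leaving out an array of BPH+ghrelin gave 14 genes for replicate 1 (18.7%), 7 for replicate 2 (13.2%) and 7 for replicate 3 (15.4%).

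In complex I, 29 of 31 genes were above 0, and 16 of 31 did not overlap on the higher side (19.8% of all genes). Its 7 nuclear-encoded core subunits, which hold the redox centres, were all above 0 (median 0.11), as were 22 of 24 supernumerary subunits (median 0.21). Ndufa5, a supernumerary subunit, had log2 signals of 13.89, 14.48 and 14.12 in sham, 13.65, 13.72 and 13.79 in BPH, and 14.12, 14.31 and 14.46 in BPH+ghrelin. Its log2 difference in BPH+ghrelin versus BPH was 0.58 ± 0.17 (adjusted p = 0.12, limma), and the BPH+ghrelin arrays lay within the range of sham. Ndufb8, a subunit of the membrane arm, had log2 signals of 13.31, 13.52 and 13.83 in BPH and 13.99, 14.06 and 14.14 in BPH+ghrelin (difference 0.51 ± 0.20, adjusted p = 0.20). Again the groups did not overlap. Ndufa9 was the exception without overlap on the lower side (-0.22).

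In complex IV, Cox7b, a small subunit, had the largest positive difference. Its log2 signals were 12.29, 13.50 and 12.89 in sham, 12.14, 12.44 and 12.64 in BPH, and 12.84, 12.98 and 13.21 in BPH+ghrelin. The groups BPH and BPH+ghrelin did not overlap, but the sham arrays overlapped with both, and the difference of 0.61 ± 0.29 did not pass the test (adjusted p = 0.28, limma). Cox7a2l, which takes part in supercomplexes of complexes III and IV, had log2 signals of 13.27, 13.07 and 12.86 in BPH and 12.83, 12.76 and 12.72 in BPH+ghrelin. All BPH+ghrelin arrays were below BPH (-0.30 ± 0.14, adjusted p = 0.28) and below sham (-0.47 ± 0.14, adjusted p = 0.093). Atp5mk, a small subunit of the membrane part of ATP synthase, was higher by 0.50 ± 0.20 (adjusted p = 0.21), and its 2 probes had the same sign. The pseudogene Cox6c-ps1 had a difference of 0.48 ± 0.15 (adjusted p = 0.14), and whether its probe also measures transcripts of Cox6c was not tested.

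Complex II, which also belongs to the citric acid cycle, was split. Sdhd, its membrane anchor, had log2 signals of 12.18, 12.02 and 12.08 in sham, 12.16, 12.19 and 12.18 in BPH, and 11.86, 11.79 and 11.82 in BPH+ghrelin. The BPH+ghrelin arrays were below all others, with a log2 difference of -0.35 ± 0.10 to BPH (adjusted p = 0.12, limma) and -0.27 ± 0.10 to sham (adjusted p = 0.16). The catalytic subunits Sdha and Sdhb and the other anchor Sdhc differed by -0.04, 0.10 and 0.06 between BPH+ghrelin and BPH. Cycs, which encodes cytochrome c, had log2 signals of 12.25, 13.40 and 12.84 in sham, 12.11, 12.55 and 12.85 in BPH, and 12.70, 13.05 and 13.32 in BPH+ghrelin. Its groups overlapped, and the difference of 0.52 ± 0.32 to BPH did not pass the test (adjusted p = 0.38). A second probe of Cycs had 10.92, 11.27 and 11.59 in BPH and 11.62, 11.61 and 11.66 in BPH+ghrelin, without overlap (difference 0.37).

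Of 9 arrays, the 3 BPH+ghrelin arrays had the highest typical values. Taking for each gene its deviation from the mean over the 9 arrays, the median over 81 genes was 0.06, 0.12 and 0.17 in BPH+ghrelin, -0.09, -0.05 and 0.03 in BPH, and -0.15, 0.05 and -0.09 in sham. On the linear scale, the 81 probes held 1.95%, 1.96% and 2.02% of the summed signal of all probes in BPH+ghrelin, 1.70%, 1.74% and 1.83% in BPH, and 1.67%, 1.81% and 1.69% in sham. Arrays of BPH+ghrelin did not overlap with either other group in both measures, whereas sham and BPH overlapped. Within scan 1, which held the 3 BPH arrays and BPH+ghrelin replicate 1, the median difference was 0.15, with 59 of 81 genes above 0. Without the intermediate array of each group it was 0.13, with 67 of 81 genes above 0.

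**Figure D4:**
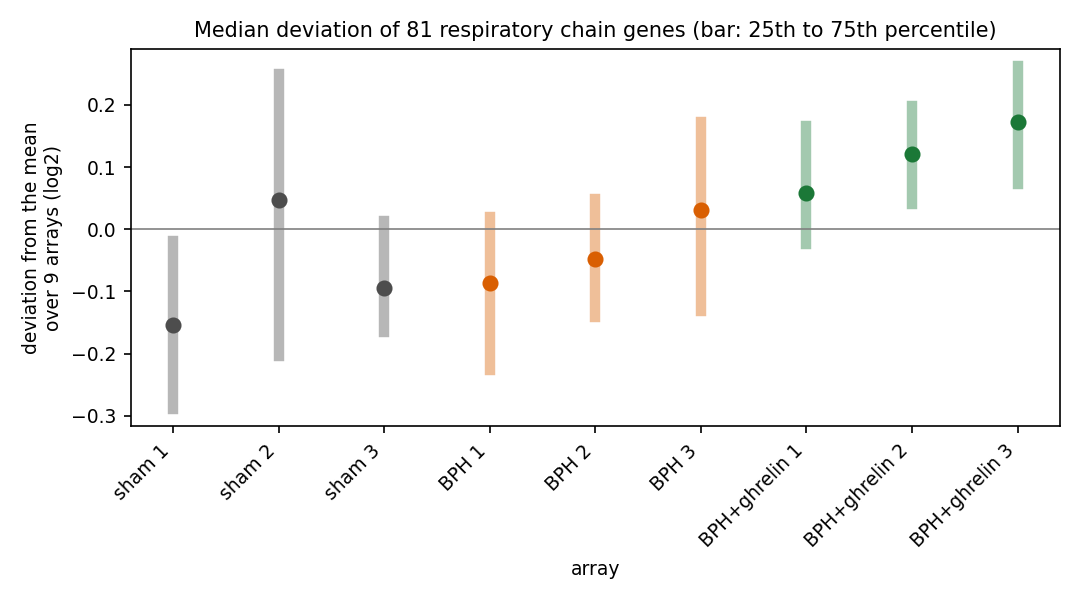
Median over 81 respiratory chain genes of the deviation from each gene's mean over 9 arrays (points, log2), with the 25th to 75th percentile (bars), for each array. The BPH+ghrelin arrays lie at 0.06, 0.12 and 0.17, above all BPH and sham arrays, but the bars overlap.

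The spread within groups differed. The SD over 3 arrays had a median over 81 genes of 0.11 in BPH, 0.090 in BPH+ghrelin and 0.16 in sham. Sham replicate 2 was the highest of its group in 50 of 81 genes and the lowest in 25, whereas sham replicate 3 was the highest in 1 and the lowest in 16. Complex I was an example, with median deviations of -0.17, 0.19 and -0.08 in sham replicates 1, 2 and 3. Ndufaf5, an assembly factor, had log2 signals of 8.64, 10.21 and 9.27 in sham (SD 0.79), beside 8.85 to 8.93 in BPH. Differences to sham therefore rested on a group whose arrays differed among themselves.

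In BPH+ghrelin versus sham, no respiratory chain gene was called (limma), beside 3% of 19197 genes called higher and 3.3% called lower. At an unadjusted p under 0.05, 21 genes were higher (13.6% of all genes) and 3 lower (10.2% of all genes), and the groups did not overlap for 24 genes on the higher side (17.5% of all genes) and 5 on the lower side (12.8% of all genes). The median log2 difference was 0.19, beside 0.041 over all genes, with 68 of 81 genes above 0 (10449 of 19197 over all genes). Besides the seminal vesicle, luminal and striated muscle sums, those of endothelial markers separated these groups (10.26 to 10.55 in sham, 9.64 to 9.87 in BPH+ghrelin), as did those of basal epithelium (13.36 to 13.53 and 13.79 to 13.91). The median deviation of the basal list overlapped (-0.06, -0.36 and -0.16 in sham, -0.07, 0.07 and 0.12 in BPH+ghrelin). Of its genes, Krt15 was 11.04 to 11.38 in sham and 12.36 to 12.37 in BPH+ghrelin. Tp63 leaned the other way, with 10.63 to 11.58 in sham and 10.32 to 10.70 in BPH+ghrelin. The median deviation of immune markers was 0.18, 0.09 and 0.16 in sham and -0.32, -0.32 and -0.24 in BPH+ghrelin. Their summed log2 signals overlapped, at 15.39 to 15.51 in sham and 15.27 to 15.70 in BPH+ghrelin. The part of these markers was not tested. Scan 2 held BPH+ghrelin replicates 2 and 3 and sham replicates 1 and 2. Within it, the median log2 difference of the respiratory chain genes was 0.20, with 67 of 81 genes above 0. This comparison shares its arrays with both others. The 24 genes past the unadjusted threshold became 5 with the scan as a block (13.3% of all genes), 11 without BPH+ghrelin replicate 2 (16.9%), 13 without BPH+ghrelin replicate 3 (20.7%) and 12 without sham replicate 3 (17.9%). Without sham replicate 1 the median was 0.093, with 55 of 81 genes above 0.

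Ndufa2, a supernumerary subunit of complex I, was nearest to a call, with log2 signals of 10.22, 9.82 and 10.09 in sham, 10.11, 10.25 and 10.42 in BPH, and 10.61, 10.62 and 10.65 in BPH+ghrelin. The BPH+ghrelin arrays were above all others, with a difference to sham of 0.58 ± 0.14 (adjusted p = 0.05002, limma). It was a call under 6 settings, among them without sham replicate 1 (0.68, adjusted p = 0.038), and not with the scan as a block (0.61, adjusted p = 0.29). Atp5mc1, which encodes the c-ring subunit of the proton channel, had the largest difference to sham (0.73 ± 0.23, adjusted p = 0.098), with log2 signals of 12.51, 12.57 and 12.43 in sham and 13.44, 13.26 and 12.99 in BPH+ghrelin. Ndufs8, a core subunit with iron-sulphur clusters, differed by 0.50 ± 0.14 (adjusted p = 0.072). Cox5b had log2 signals of 13.63, 13.60 and 13.60 in sham, 13.70, 13.81 and 13.76 in BPH, and 13.98, 14.00 and 14.02 in BPH+ghrelin, and was thus separated in all 3 groups. On the lower side, Cox6b2 (-0.25), Ndufs7 (-0.11), Sdhd, Cox7a2l and Ndufa1 did not overlap with sham.

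Several subunits of complex IV exist as isoforms for different tissues. Cox4i1, the general isoform, had log2 signals between 14.61 and 14.81 on all 9 arrays, and its log2 differences were 0.01, 0.02 and 0.02 in the 3 comparisons. Cox4i2, known as the isoform of lung and low oxygen, had log2 signals of 9.86, 10.02 and 10.19 in BPH and 10.18, 10.45 and 10.54 in BPH+ghrelin, with an overlap at the border (0.37 ± 0.14, adjusted p = 0.19, limma). Cox6a1 and Cox8a, the general isoforms, were above sham in all BPH and BPH+ghrelin arrays, with differences of 0.40 ± 0.11 (adjusted p = 0.075) and 0.55 ± 0.15 (adjusted p = 0.070) in BPH+ghrelin versus sham. Cox7a2 differed by 0.29 ± 0.11 between BPH+ghrelin and BPH (adjusted p = 0.19). Ndufa4, now counted to complex IV, and Cox6b1 differed by 0.08 and 0.10 in that comparison. Another probe of Cox6b1 differed by 0.53 there, with 7.89, 7.88 and 7.83 in BPH and 8.39, 8.40 and 8.40 in BPH+ghrelin. None of these isoforms was called.

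The heart and muscle isoforms Cox6a2 and Cox8b had lower log2 signals than the general isoforms Cox6a1 and Cox8a. Of the first pair, only Cox6a2 was well above background on all 9 arrays. Cox6a2 had log2 signals of 6.40, 5.65 and 6.06 in sham, 5.17, 5.81 and 6.36 in BPH, and 6.86, 6.37 and 5.83 in BPH+ghrelin, and all groups overlapped. Cox8b had log2 signals of 4.06, 3.22 and 3.52 in sham, where it was well above background on 2 of 3 arrays, and was not well above background on any of the BPH and BPH+ghrelin arrays. The sham mean was at least 2.00-fold higher than the background limit in BPH and at least 1.86-fold higher than that in BPH+ghrelin; the measured means were 3.60, 1.88 and 2.43, and Cox8b did not pass the filter and was not tested. Striated muscle markers (20 genes) had summed log2 signals of 12.2 to 12.3 in sham, 11.03 to 12.21 in BPH and 11.6 to 11.7 in BPH+ghrelin, with 5 of 18 tested genes called lower in BPH versus sham (2.18% of all genes); their part in Cox8b was not tested. Cox8c, known from testis, was not well above background on any of the 9 arrays. Cox6b2, also known from testis, had log2 signals between 8.60 and 9.12 on all arrays, while testis and sperm markers had 4 of 10 genes above the filter.

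For 18 genes with more than 1 probe, the log2 difference had the same sign for all probes in 13 genes in BPH+ghrelin versus BPH, 13 in BPH versus sham and 14 in BPH+ghrelin versus sham. Ndufs4 was an exception, with probes at -0.51 and 0.10 in BPH+ghrelin versus BPH. Ndufaf4, with 4 probes, ranged from -0.27 to 0.20. For Cox6b1, probe values between 7.73 and 11.01 were measured.

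Other genes of the pathway were counted from lists of textbook members. Of 42 tested assembly factors of complexes II to V, and of complex I beyond Ndufaf, 0 were called in BPH+ghrelin versus BPH and in BPH versus sham. In BPH+ghrelin versus sham, 2 were called higher: Cox20 (0.87 ± 0.14, adjusted p = 0.014, limma) and Cox11 (0.65 ± 0.16, adjusted p = 0.049), which help to assemble the catalytic core of complex IV. That is near the 3% of all genes called higher there. Of 66 mitochondrial ribosomal proteins, which translate the subunits encoded in mitochondrial DNA, 50 were above 0 in BPH+ghrelin versus BPH (median 0.18). In that comparison 1 was called, Mrps23, which was lower (-0.60 ± 0.10, adjusted p = 0.039, limma), near the 0.987% of all genes called lower. Its call was lost without the 3 intermediate arrays, where 0 of all genes were called. With the scan as a block, 2 of 19749 genes were called. Mrpl49 (0.87), Mrpl4 (0.83) and Mrpl51 (0.56) were called higher in BPH+ghrelin versus sham, again near the 3% of all genes. In BPH+ghrelin versus sham, 2 of all genes were called without the 3 intermediate arrays, so that not all calls of these lists held there. With the scan as a block, 84 of 19197 genes were called, and which of the named genes were among them is not given. Of 28 import, cristae and dynamics genes, 0 were called and 19 were below 0 in BPH+ghrelin versus BPH (median -0.09), and of 17 carriers and uncoupling proteins 0 were called. At an unadjusted p under 0.05, these 2 lists had 4 and 3 genes in that comparison, beside 21.1% of all genes.

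Of the regulators of mitochondrial biogenesis, 24 were tested in the comparisons with BPH and 23 in BPH+ghrelin versus sham. Tfb1m, which modifies mitochondrial ribosomal RNA, was called higher in BPH+ghrelin versus sham (0.72 ± 0.13, adjusted p = 0.023, limma), beside 3% of all genes called higher. Whether this call held without the intermediate arrays or with the scan as a block is not given. Ppargc1a, a coactivator of mitochondrial genes, had log2 signals of 3.36, 0.94 and 3.08 in sham, 4.09, 4.02 and 4.11 in BPH, and 3.41, 1.68 and 0.70 in BPH+ghrelin. Its signal exceeded background clearly on 3 of 3 arrays of BPH but on 1 of 3 in each other group. It passed the filter mainly through the BPH arrays, so that no fold is given and its test is not read. Ppargc1b had 5.33, 5.01 and 4.75 in BPH and 4.10, 3.99 and 4.62 in BPH+ghrelin, which did not overlap (-0.80 ± 0.22, adjusted p = 0.10). The difference of Nrf1, a transcription factor of many respiratory chain genes, was 0.35 ± 0.11 (adjusted p = 0.14), that of Tfam, which packs mitochondrial DNA, -0.17 ± 0.10 (adjusted p = 0.39), that of Gabpa -0.33 ± 0.20 (adjusted p = 0.38) and that of Esrra 0.10 ± 0.17 (adjusted p = 0.76). Ppargc1b, Nrf1, Tfam, Gabpa and Esrra were not called in any comparison. Ppargc1a was not tested in BPH+ghrelin versus sham.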

How the data were processed

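Prostate RNA was measured on 9 Agilent one-colour arrays. For each spot, the authors deposited scanner intensities after subtraction of background, which were not normalized between arrays. A matrix of log2 values, quantile normalized by the authors, was also deposited and served as an alternative. Outlier spots were removed, spots of a probe averaged, and log2 intensities of 30356 probes quantile normalized over 9 arrays. Probes well above background on at least 3 of 6 arrays compared were kept, and a gene was represented by its probe with the highest mean. Groups were compared with limma 3.58.1 (lmFit and eBayes, R 4.3.3) in a fit of all 9 arrays, with Benjamini-Hochberg adjustment; the code was tested on simulated data. For a single gene, the smallest two-sided p of an exact permutation test in this design is 0.1. The number of arrays limits the precision.

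Accessions were matched to symbols in the RefSeq table of GRCr8; no gene coordinates other than those of promoters are given. The genes and lists were chosen with earlier results of these data known. Named were, for each comparison and direction, up to 5 called genes with the largest difference, filled with genes whose groups do not overlap, and further the tissue isoforms of complex IV, complex II, Cycs, called genes of other lists (up to 5 a list) and 6 regulators. Other genes, such as Uqcr10, Uqcrfs1, Ndufaf5, Ndufa9 and Cox5b, were named after their values were seen, and so were the division of complexes by subunit role and the intermediate arrays. The deviations of arrays with the same number had correlations of -0.13 to 0.25, within the range for unlike numbers (-0.28 to 0.30). This does not show whether the numbers pair the samples. A legend of the study gives another dose and route of ghrelin than its methods, which were followed here.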

Additional observations from a re-analysis of the deposited data

How the results depend on the processing

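Counts of called genes were near the threshold and moved with the processing. In BPH+ghrelin versus BPH, 0 genes were called in all settings except normexp background correction (3) and the fit of 6 arrays alone (3, beside 10.6% of all genes); the median of 0.13 rose to 0.46 under scaling to the 75th percentile and ranged from 0.12 to 0.17 when single arrays were left out. In BPH versus sham, 2 genes were called. The count was 4 with normexp (5.22% of all genes). It was 3 with the filter on all 6 arrays, with probes in place of genes, with the deposited matrix and with eBayes trend and robust (4.3% to 6.55% of all genes). It was 1 without a filter on dim probes (1.98%), 0 with 6 arrays alone (0.926%) and 0 with the scan as a block (0.0102%). A 2-fold rule without a test gave 0, beside 690 genes higher and 905 lower over all genes. Leaving out single arrays gave 0 to 6, with 6 without sham replicate 1, where 15.8% of all genes were called. Under scaling to the 75th percentile the count was also 2, but with Ndufa1 in place of Atp5f1c. Its median of 0.0067 turned to -0.26 under scaling to the 75th percentile, to -0.0011 with probes in place of genes, to -0.0025 without the 3 intermediate arrays, and ranged from -0.0304 to 0.053 when single arrays were left out. In BPH+ghrelin versus sham, 0 genes were called; the count was 1 with scaling to the 75th percentile, 7 with normexp, 2 with the filter on all 6 arrays, 1 with probes in place of genes, 1 with the deposited matrix, 6 with eBayes trend and robust (5.97% to 7.39% of all genes over these settings), and 0 to 2 when single arrays were left out, while its median ranged from 0.093 to 0.25. Groups that do not overlap numbered 42 genes in BPH+ghrelin versus BPH (34 higher, 8 lower, beside 19.8% and 19.3% of all genes). In BPH versus sham they numbered 22 (16 higher, 6 lower, beside 17.1% and 14.2% of all genes). In BPH+ghrelin versus sham they numbered 29 (24 higher, 5 lower, beside 17.5% and 12.8% of all genes). With the replicate number as a replicate block, 0 respiratory chain genes were called in each comparison (adjusted p = 0.058 for Atp5f1b and 0.10 for Atp5f1c in BPH versus sham, limma). Over all genes, 0.0861% were then called in BPH+ghrelin versus BPH, 1.24% in BPH versus sham and 2.4% in BPH+ghrelin versus sham. The replicate numbers were not shown to pair the samples. Leaving out arrays or fitting 6 arrays reduces the degrees of freedom, but the share of all genes called moved both ways. With 6 arrays alone it went from 1.48% to 10.6% in BPH+ghrelin versus BPH. In BPH versus sham it went from 4.33% to 0.926% with 6 arrays alone, and to 15.8% without sham replicate 1. The causes were not tested. The values within scans, the counts of groups that do not overlap and those without intermediate arrays were chosen after seeing the data.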
